A study of Solanum lycopersicum with 30 samples.

Results

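STWRKY8 is the 1 gene symbol containing the letters WRKY on a cDNA array to which tomato leaf RNA was hybridised. It was chosen by its symbol, with earlier results of these data known. All rows of the array whose only symbol is STWRKY8 were taken, which are 2 clones spotted in duplicate, 4 spots in all. The array has 426 symbols with a value. The array's annotation gives the symbol with gene identifier 102577688. The tomato gene table used here holds none of the gene identifiers behind the array's symbols (0 matches, that of STWRKY8 included). The species from which the clones and their annotation came was therefore not established. Whether the clones belong to 1 tomato gene was not established either, and no sequence or position of the gene was analysed here. Whether RNA of other WRKY genes also bound the clones was not tested.

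WRKY proteins are plant transcription factors named after a conserved stretch of their DNA-binding domain. They bind W box elements in promoters, many of which lie in front of defence genes, and different members switch such genes on or hold them down. RNA of many WRKY genes changes within hours of contact with a pathogen, which makes the family a common early readout of plant immune signalling. The tobacco resistance gene N, which was present in some of the plants compared here, encodes a TIR-NB-LRR receptor that recognises tobacco mosaic virus (TMV), an RNA virus.

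Leaves of tomato (Solanum lycopersicum) were treated with sap containing TMV or with mock leaf sap, and were collected 3, 9 or 27 h later. Plant age was listed as 28 to 35 days for all arrays, growth temperature as 25 °C and day length as 16 h. Ages of single plants were not listed, so an effect of age was not tested. The 3 genotypes were sun1-1 (N), a mutant with enhanced susceptibility, resistant plants (N) and susceptible plants (n), so that sun1-1 and resistant leaves both carried N. Each of the 30 arrays held the RNA of a TMV-treated plant labelled with Cy3 and that of a mock-treated plant labelled with Cy5, of the same genotype and time, with 3 arrays per group in sun1-1 and susceptible leaves and 4 in resistant leaves. Each RNA sample came from the leaf tissue of 1 plant, and whole leaf was used, so that fewer cells with the transcript and less transcript per cell cannot be told apart.

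The values are the deposited log2 ratios of the channels, centred near 0 on each array. The numerator of the ratio is not stated. The titles name mock before TMV, and limma by default divides Cy5 by Cy3, which would be mock over TMV, but whether that default was used is not given in the sources used here. Signs are therefore printed as deposited, and a positive value may mean more signal after TMV or more after mock treatment. Higher and lower below refer to the ratio. No array had the dyes exchanged, so a dye effect of the clones is part of every ratio of TMV and mock leaves, while it cancels in differences between times or genotypes.

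Clones measured per array ranged from 2173 to 9511, and the standard deviation of an array's ratios ranged from 0.219 to 1.35. Profiles varied widely: 20 of 435 pairs of arrays correlated below -0.3 across clones, and the correlations ran from -0.57 to 0.55. The arrays of widest spread were sun1-1 3 h replicate 3 (SD 1.35) and sun1-1 27 h replicate 1 (SD 0.687), and the sun1-1 means, the 3 h mean over genotypes and the differences between times are also given without them where a value can be had. Values of sun1-1 27 h replicate 2 stood 1 row out of place in the deposited table, and once set right that array had no value for STWRKY8. Resistant replicate 4 was grouped by its titles at 9 h and 27 h, although the treatment text of its virus channel reads 3 h and 9 h; without these 2 arrays the 3 h mean below is 0.73 and 27 h minus 3 h is -1.02. Of the leaf genes looked for, PSBR, a subunit of photosystem II, had a value on 30 arrays and THF1, a chloroplast protein, on 29.

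STWRKY8 had a value on 29 of the 30 arrays. All 4 spots were measured on 21 arrays, 3 spots on 4 arrays and 2 spots on 4 arrays. Between its duplicate spots the ratio correlated at r = 0.962 for clone 1 over 27 arrays and at r = 0.917 for clone 2 over 22 arrays, with a median absolute difference of 0.125 and 0.123. The clones themselves correlated at r = 0.769 over the 26 arrays that measured both, and their signs were alike on 23 of these. The points of these correlations share the RNA, the dyes and the array. The median absolute difference between the clones was 0.16, and the widest was 1.45, on sun1-1 3 h replicate 3, where clone 1 had 0.45 and clone 2 had 1.90, each from 1 spot. Another array on which they differed was susceptible 9 h replicate 1, with 1.15 for clone 1 and 0.35 for clone 2. The mean of the clones was taken as the STWRKY8 value. On resistant 9 h replicates 2 and 4 it rested on clone 1, and on sun1-1 27 h replicate 1 on clone 2.

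**Figure D1:**
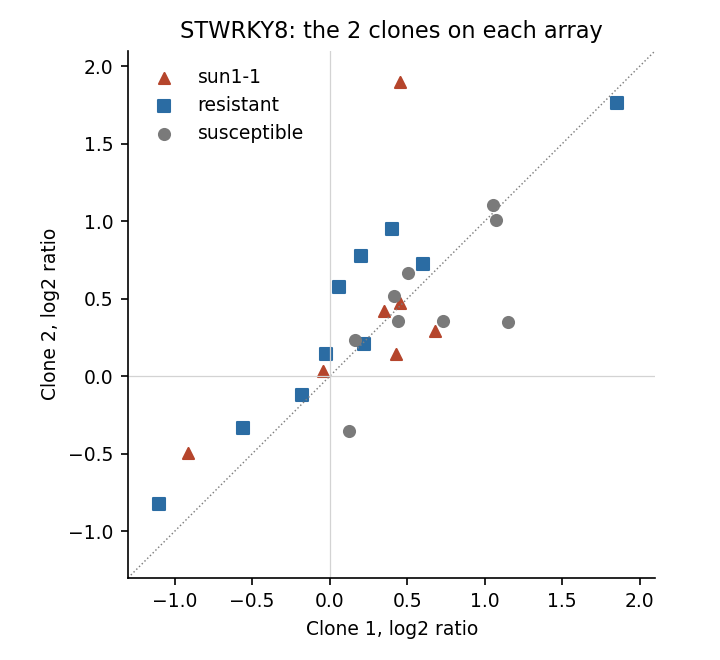
Log2 ratio of STWRKY8 clone 1 (horizontal axis) and clone 2 (vertical axis) on the 26 arrays that measured both. Each point is an array, marked by genotype, and the dotted line marks equal values. Most points lie near the line, and sun1-1 3 h replicate 3, with 0.45 for clone 1 and 1.90 for clone 2, lies farthest from it.

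At 3 h the STWRKY8 ratio was positive on 8 of 10 arrays. In sun1-1 leaves it was 0.46, -0.0037 and 1.18 for replicates 1, 2 and 3, the last of these from the array of widest spread. In resistant leaves it was -0.15, 0.68, 0.66 and 1.81 for replicates 1 to 4. In susceptible leaves it was 1.08, 1.04 and 0.54 for replicates 1 to 3. Thus all susceptible arrays lay above 0.5, while a single resistant array was clearly below 0 and another gave the highest value of the study, and the ranges of the 3 genotypes overlapped.

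At 9 h the ratio was positive on 9 of 10 arrays. Sun1-1 leaves had 0.29, 0.48 and -0.70 for replicates 1 to 3. Resistant leaves had 0.32, 0.94, 0.49 and 0.50 for replicates 1 to 4. Susceptible leaves had 0.75, 0.59 and 0.20 for replicates 1 to 3. Resistant and susceptible arrays covered nearly the same range, and the 1 negative value was that of a sun1-1 array.

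At 27 h the ratio was positive on 5 of 9 arrays. Sun1-1 leaves had -1.86 for replicate 1 and 0.39 for replicate 3, with no value for replicate 2. Resistant leaves had -0.96, -0.45, 0.22 and 0.06 for replicates 1 to 4. Susceptible leaves had 0.47, 0.40 and -0.11 for replicates 1 to 3. The genotypes overlapped again, and the lowest value of the study came from sun1-1 replicate 1, the array with the second widest spread and with clone 2 alone.

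**Figure D2:**
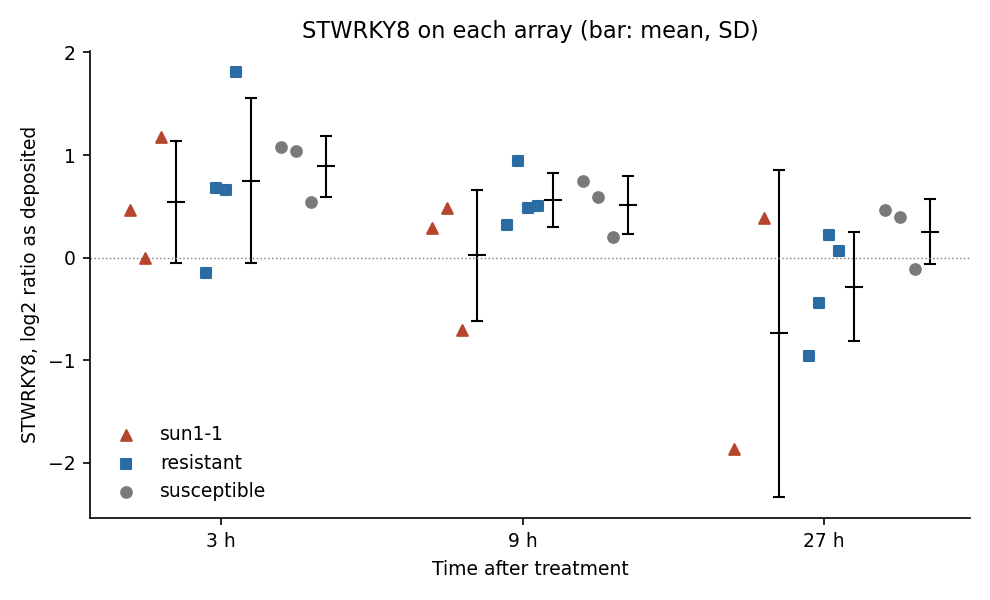
STWRKY8 log2 ratio as deposited (vertical axis) on each of 29 arrays by time after treatment (3, 9 and 27 h) and genotype, drawn as sun1-1 triangles, resistant squares and susceptible circles. Horizontal marks with bars give mean and SD of a group. The group means run downward with time, with 0.55, 0.02 and -0.74 in sun1-1 leaves (0.23, 0.02 and 0.39 without the 2 arrays of wide spread, which is not downward), 0.75, 0.56 and -0.28 in resistant leaves and 0.89, 0.51 and 0.25 in susceptible leaves, and the bars of most groups overlap.

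In sun1-1 leaves the mean log2 ratio was 0.55 ± 0.59 at 3 h (SD, n = 3), 0.02 ± 0.64 at 9 h (n = 3) and -0.74 ± 1.59 at 27 h (n = 2). In resistant leaves it was 0.75 ± 0.80, 0.56 ± 0.26 and -0.28 ± 0.53 at 3, 9 and 27 h (SD, n = 4 each). In susceptible leaves it was 0.89 ± 0.30, 0.51 ± 0.28 and 0.25 ± 0.32 at the same times (SD, n = 3 each). The mean thus ran downward from 3 h through 9 h to 27 h in resistant and susceptible leaves. In sun1-1 leaves the downward course rested on the 2 arrays of wide spread: without them the values were 0.23 at 3 h (n = 2), 0.02 at 9 h (n = 3) and 0.39 at 27 h (n = 1). Ordered by mean, the 9 groups ran from susceptible 3 h and resistant 3 h through resistant 9 h, sun1-1 3 h, susceptible 9 h, susceptible 27 h, sun1-1 9 h and resistant 27 h to sun1-1 27 h. Each of the 8 steps between neighbours in this order was smaller than the larger SD of its groups.

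Set against the other clones and symbols on the same array, STWRKY8 stood high at the early times. Its ratio lay above the 90th percentile of the array's rows on 7 of 10 arrays at 3 h, on 6 of 10 at 9 h and on 1 of 9 at 27 h. The median percentile was 96.6 at 3 h, 95.2 at 9 h and 57.5 at 27 h. On susceptible 3 h replicate 1 it reached 99.8, and on resistant 3 h replicate 4 it reached 99.7. At 27 h it was below the 10th percentile on 2 arrays, at 0.827 on sun1-1 replicate 1 and 0.790 on resistant replicate 1. Rescaling all ratios of an array would not change these places, but they do depend on how widely the other rows scatter. On sun1-1 3 h replicate 3 (SD 1.35) a ratio of 1.18 stood at 82.2. On sun1-1 3 h replicate 1 (SD 0.219) a ratio of 0.46 stood at 98.1.

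**Figure D3:**
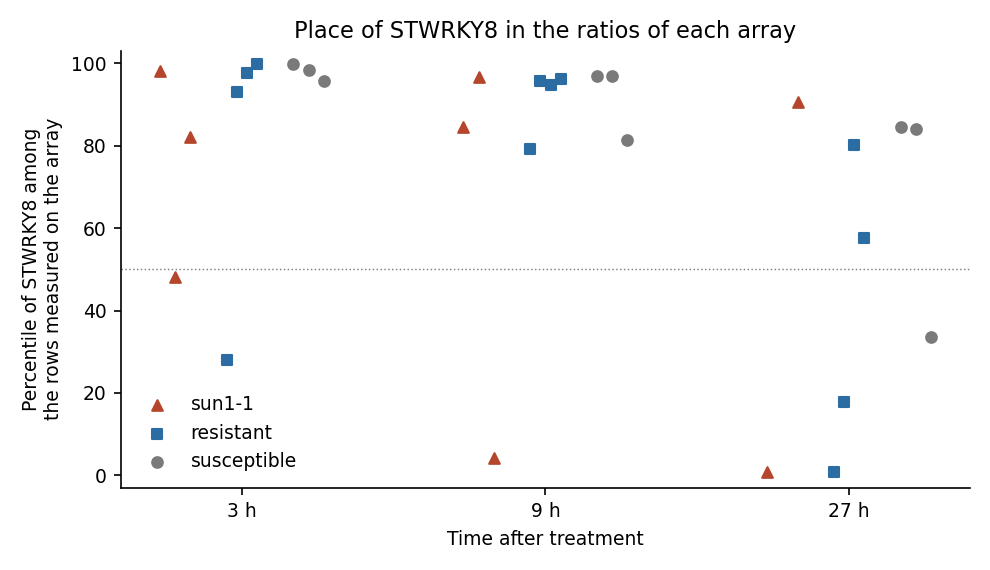
Percentile of STWRKY8 among all rows measured on the same array (vertical axis, 0 to 100) by time after treatment and genotype, 1 point per array, with the dotted line at the middle. At 3 h and 9 h most points lie near the top, with medians of 96.6 and 95.2, and at 27 h they spread over nearly the whole scale, with a median of 57.5.

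Whether TMV and mock leaves differed was tested first at each time, with the genotypes averaged. A linear model with 9 group means was fitted to every row and tested with limma, with Benjamini-Hochberg adjustment over all rows tested. At 3 h the mean STWRKY8 ratio was 0.73 (SE 0.180, 95% interval 0.36 to 1.10, 10 arrays), a 1.66-fold difference between the channels. Its unadjusted p by limma was 0.000432 and its adjusted p was 0.104, so it did not pass the threshold of 0.05. Without the 2 arrays of wide spread the 3 h mean was 0.62 (limma adjusted p = 0.0850). The background was 5 of 5357 rows called (0.0933%), with 903 rows at an unadjusted p under 0.05. At 9 h the mean was 0.36 (SE 0.180, 95% interval -0.0062 to 0.74, limma adjusted p = 1). At 27 h it was -0.26 (SE 0.196, 95% interval -0.66 to 0.15, limma adjusted p = 0.752). No row was called at 9 h (0% of 5133, 155 at unadjusted p under 0.05) or at 27 h (0% of 5327, 450 at unadjusted p under 0.05).

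The same arrays were tested without the other rows, by an exact test that exchanges the sign of each array's STWRKY8 value (two-sided, Benjamini-Hochberg over the 3 times). The mean over arrays was 0.73 ± 0.58 at 3 h (SD, n = 10), with exact p = 0.00781 and adjusted p = 0.0234. It was 0.38 ± 0.44 at 9 h (SD, n = 10), with exact p = 0.0293 and adjusted p = 0.0440. It was -0.21 ± 0.78 at 27 h (SD, n = 9), with exact p = 0.508. The ratio therefore lay off 0 at 3 h and at 9 h beyond the spread between arrays, but not at 27 h. These p-values take no account of the other rows tested, they measure only the spread between these arrays, and a dye effect of the clones would give the same sign on every array, which was not tested. Nor do they allow for the choice of symbol and tests, which was made with earlier results of these data known. Without both arrays of wide spread the 3 h mean was 0.68 (exact adjusted p = 0.0440). Without replicate 4, which existed in resistant leaves only, the 9 h mean was 0.37 and its exact adjusted p was 0.0762.

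The difference between times is free of a fixed dye effect. The 3 h arrays ran from -0.15 to 1.81 with a median of 0.67, the 9 h arrays from -0.70 to 0.94 with a median of 0.49, and the 27 h arrays from -1.86 to 0.47 with a median of 0.06. In limma's fit the STWRKY8 ratio at 27 h minus that at 3 h was -0.98 on the log2 scale (SE 0.266, 95% interval -1.53 to -0.44), with an unadjusted p of 0.00104 and an adjusted p of 0.428. At 27 h minus 9 h it was -0.62 (SE 0.266, 95% interval -1.17 to -0.074, limma adjusted p = 0.950). At 9 h minus 3 h it was -0.36 (SE 0.255, limma adjusted p = 0.649). No row of the table was called in these 3 differences (0% of 4562, of 4492 and of 4576), against 403, 216 and 392 at an unadjusted p under 0.05. Without the 2 arrays of wide spread sun1-1 leaves kept a single array at 27 h, so the fit gave no difference that involves 27 h, and 9 h minus 3 h was -0.26 (limma adjusted p = 0.697). With arrays weighted by their quality the values were -0.61 for 27 h minus 3 h (limma adjusted p = 0.305) and -0.28 for 27 h minus 9 h (limma adjusted p = 0.999).

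In tests on STWRKY8 alone, adjusted over the 3 pairs of times, the mean over arrays differed by -0.94 for 27 h minus 3 h (two-sided exact permutation test, 9 and 10 arrays, p = 0.00463, adjusted p = 0.0139). The difference was -0.59 for 27 h minus 9 h (exact permutation p = 0.0476, adjusted p = 0.0714) and -0.35 for 9 h minus 3 h (permutation test, p = 0.151). The STWRKY8 ratio at 27 h was thus lower than at 3 h beyond the spread between arrays, while the other pairs of times did not pass. Here too the p-values take no account of the other rows, or of the earlier results known when symbol and tests were chosen. They also treat arrays with the same replicate number as independent. Without the 2 sun1-1 arrays of wide spread the 27 h minus 3 h difference was -0.68 and no longer passed (exact adjusted p = 0.0576), 27 h minus 9 h was -0.38 (exact adjusted p = 0.156) and 9 h minus 3 h was -0.30 (exact p = 0.238). Without any sun1-1 array it was -0.86 and passed (exact adjusted p = 0.0184), and 27 h minus 9 h, at -0.59, passed as well (exact adjusted p = 0.0184).

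By genotype, the mean at 27 h minus that at 3 h was -1.28 in sun1-1 leaves, -1.03 in resistant leaves and -0.64 in susceptible leaves. Without the 2 arrays of wide spread the sun1-1 difference had the other sign, 0.16, with a single array left at 27 h. The arrays of the times did not overlap in susceptible leaves, where the highest 27 h value was 0.47 and the lowest 3 h value 0.54. They overlapped in sun1-1 and resistant leaves. Between 27 h and 9 h it was the resistant arrays that did not overlap, with a highest value of 0.22 at 27 h and a lowest value of 0.32 at 9 h. This rests on the titles of resistant replicate 4. Its 27 h array had 0.06, and the treatment text of its virus channel reads 9 h. Placed at 9 h, that value would make the ranges overlap. How often other rows separate with so few arrays was not counted. The F test of any change over the 3 times gave an unadjusted limma p of 0.0623 in sun1-1 leaves (adjusted p = 0.684), 0.0360 in resistant leaves (adjusted p = 0.753) and 0.394 in susceptible leaves (adjusted p = 0.978). It called no row in any genotype (0% of 5989, of 4729 and of 5647), with 442, 280 and 365 rows at an unadjusted p under 0.05.

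Whether the change with time differed between genotypes was tested with the interaction of genotype and time. For STWRKY8 limma gave an F statistic of 0.368 and an adjusted p of 0.963 (unadjusted, 0.829). No row was called (0% of 4142), with 316 at an unadjusted p under 0.05. With 2 to 4 arrays per group and a residual SD of 0.616 this leaves wide room for differences.

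The genotype comparisons at a single time set N plants against n plants and the sun1-1 mutant against its resistant counterpart. The ratio in sun1-1 minus that in resistant leaves was -0.21 at 3 h (95% interval -1.09 to 0.68), -0.54 at 9 h (-1.43 to 0.35) and -0.46 at 27 h (-1.46 to 0.55). Without the 2 arrays of wide spread the 3 h value was -0.52, and 27 h had none. The ratio in resistant minus that in susceptible leaves was -0.14 at 3 h (-1.03 to 0.75), 0.05 at 9 h (-0.84 to 0.94) and -0.53 at 27 h (-1.42 to 0.35). None of the 6 passed, with limma adjusted p-values from 0.886 to 1.00 and no row called in any of them (0%). Every interval includes differences of at least 0.94 log2 units in at least 1 direction, so moderate differences between genotypes were not detectable with these arrays.

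**Figure D4:**
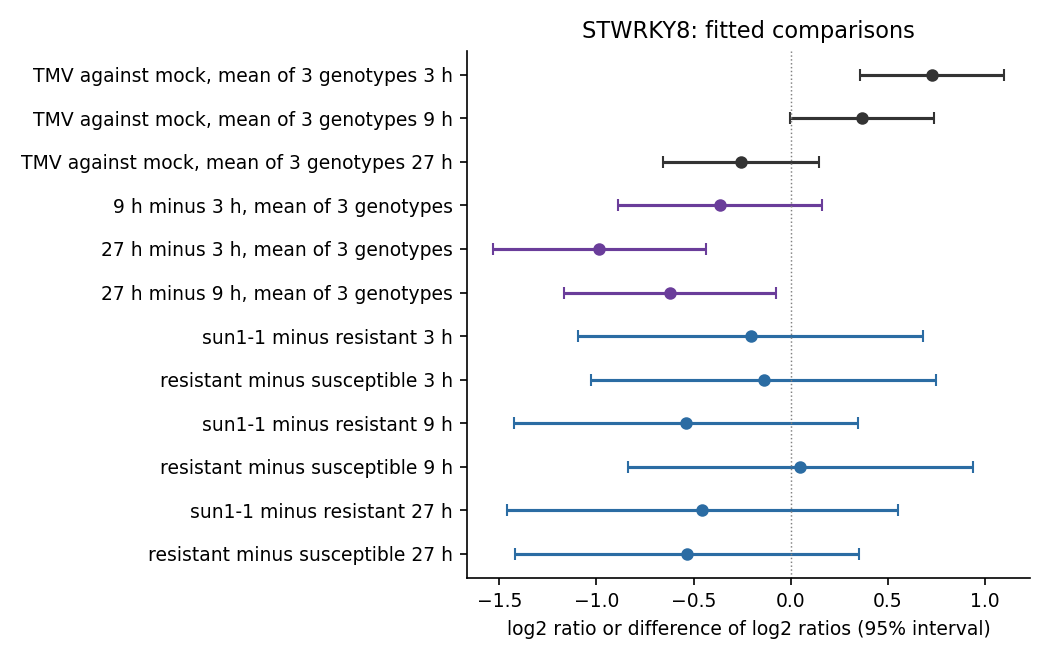
Fitted log2 ratios and differences of log2 ratios of STWRKY8 (horizontal axis) with 95% intervals: from the top, TMV against mock over 3 genotypes at each time, differences between times, and differences between genotypes at each time. The intervals at 3 h (0.36 to 1.10), of 27 h minus 3 h (-1.53 to -0.44) and of 27 h minus 9 h (-1.17 to -0.074) exclude 0. All 6 genotype intervals include it. The intervals are not adjusted for the number of rows tested.

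Within single groups, TMV against mock leaves gave an STWRKY8 ratio with a limma SE of 0.326 at 3 h and at 9 h in sun1-1 and susceptible leaves, 0.283 in resistant leaves and 0.400 in sun1-1 leaves at 27 h. The smallest unadjusted p was 0.0115, for susceptible leaves at 3 h, where the adjusted p was 0.722, and resistant leaves at 3 h followed with 0.0134 (adjusted p = 0.397). Leaving out resistant 3 h replicate 4, with its ratio of 1.81, moved the resistant 3 h mean to 0.40, against 0.75 with it, and its adjusted p by limma to 0.714. No group passed, and limma called no row in any of the 9 (0%). Over all 25 comparisons, 24 called no row while 88 to 732 rows had an unadjusted p under 0.05. STWRKY8 had an unadjusted p under 0.05 in 6 of the 25 and an adjusted p under 0.05 in 0.

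Other defence-related symbols were taken from a list of words, which 14 symbols besides STWRKY8 matched. Among them were CAT1, a catalase, DHAR and DHAR2, dehydroascorbate reductases that recycle vitamin C, CDPK1 and CDPK2, calcium-dependent protein kinases, PPO, polyphenol oxidase, and FLS, flavonol synthase, while BCAT1 and BCAT2, branched-chain aminotransferases, matched by their letters only and could not be tested in the mean of 3 genotypes. At 3 h 10 of them could be tested over the mean of 3 genotypes. None was called by limma, 5 had a positive mean ratio, and their median ratio was -0.014, against 0.018 over all rows. The rest had too few arrays with a value in at least 1 genotype. Their means over the 3 h arrays were 0.57 for NAC2 (n = 5, all positive), 0.11 for CDPK1 (n = 1), -0.17 for BCAT1 (n = 6) and -0.26 for BCAT2 (n = 2). At 9 h 9 of 10 tested symbols had a positive ratio, with a median of 0.072 against 0.0067 over all rows. At 27 h 9 of 11 did, with a median of 0.10 against -0.0031 over all rows, and limma called none at either time. The smallest p-values at 3 h belonged to RSI5, with a mean ratio of 1.00 (SE 0.258, limma adjusted p = 0.104), positive on 9 of 9 arrays, and to F3H, flavanone 3-hydroxylase, with 0.39 (SE 0.179, limma adjusted p = 0.267). PR1B, a pathogenesis-related protein and common marker of salicylic acid signalling, had a mean ratio of -0.08 at 3 h (SE 0.296, limma adjusted p = 0.897). At 9 h the mean PR1B ratio was 0.79 ± 0.29 in sun1-1 leaves, 1.21 ± 2.47 in resistant leaves and -0.09 ± 0.66 in susceptible leaves (SD, n = 3 each). The resistant arrays had 3.57, 1.40 and -1.35 for replicates 1 to 3, so that their range took in all values of the other genotypes. Values for RSI5 at 27 h minus 3 h (-0.67, SE 0.358, limma adjusted p = 0.592) had the sign of the STWRKY8 difference, and those for F3H (0.28, SE 0.254, limma adjusted p = 0.752) and PR1B (0.24, SE 0.418, limma adjusted p = 0.881) had the other sign.

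The symbols whose ratios across arrays were most like those of STWRKY8 were sought by Pearson's r among the 327 symbols that shared at least 20 arrays with it. The highest were LOC102577801 (r = 0.81 over 23 arrays), LOC102585585 (r = 0.81 over 25), LOC102577921 (r = 0.76 over 22), LOC102577666 (r = 0.75 over 26) and LOC102577828 (r = 0.72 over 20). The median over all symbols was -0.034, and 16 symbols exceeded 0.5. The points share RNA, dyes and array, so these values are descriptions without a test. By Spearman's rho 4 of the 5 were again among the first 5, and without both arrays of wide spread 3 of 5 were, with LOC102577828 left under 20 arrays.

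At 3 h and 9 h the mean ratios of these symbols over all arrays were below those of STWRKY8, which were 0.73 and 0.38, and at 27 h, where STWRKY8 averaged -0.21, they lay on both sides of it. LOC102585585 averaged 0.50 ± 0.55 at 3 h (SD, n = 9), 0.32 ± 0.49 at 9 h (n = 9) and -0.39 ± 0.62 at 27 h (n = 8). LOC102577666 averaged 0.39 ± 0.19 at 3 h (SD, n = 10), 0.06 ± 0.40 at 9 h (n = 7) and -0.19 ± 0.29 at 27 h (n = 10), and was positive on all 10 arrays at 3 h. LOC102577801 averaged 0.26, 0.21 and -0.16 at 3, 9 and 27 h, LOC102577828 averaged 0.30, 0.05 and -0.07, and LOC102577921 averaged 0.39, 0.12 and 0.23. The mean at 27 h was thus below that at 3 h in all 5, as in STWRKY8, whose pattern chose them.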

How the data were processed

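Arrays of cDNA clones, with 2 dyes, measured tomato leaf RNA. The deposited values are log2 ratios that the authors made and centred; limma is named, without a version, per the submitters' processing notes, and the sources used here do not give scanner, normalization or filter. The log2 base was read from the values. The symbol, the word list and the tests were chosen with earlier results of these data known.

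Computed here (R 4.3.3, limma 3.58.1, Python 3.11.15): duplicate spots were averaged into clones by the array's layout (905 of 905 annotated pairs followed it) and clones of a symbol into 1 row, giving 12212 rows. The displaced column was moved by 1 row, after which its mean absolute correlation with other arrays was 0.172, against 0.0115 as deposited. A row was tested where each group compared had 2 or more arrays with a value. No pseudocount or imputation was used; arrays without a value were dropped for that row. The fit used 1 mean per group, with prior SD 0.323 and 5.66 prior degrees of freedom, and was tested on simulated data. Array number and spread limit the precision. Named besides STWRKY8 were list symbols called at 3 h (none), otherwise PR1B and the 2 of smallest p, and the 5 symbols most like STWRKY8. Symbols given only to show the list's makeup, the list symbols that could not be tested at 3 h, and PR1B by genotype were added after their values were seen. Alternatives covered scaling, array weights, a replicate block, each clone alone, the column as deposited, and leaving out arrays.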

Additional observations from a re-analysis of the deposited data

How the results depend on the processing

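Of 541 alternative values for STWRKY8, 507 kept their side of the threshold and, where they have one, their sign, while 8 newly passed, 2 no longer passed and 24 changed sign. Values of F tests have no sign and were judged by the threshold alone. In the limma fit as reported no comparison passed, so keeping the side there means not passing. The 3 h mean over genotypes passed with arrays scaled to 1 spread (0.70, limma adjusted p = 0.0353) and with array quality weights (0.71, adjusted p = 0.00756), and leaving out replicates gave 0.61 to 0.83, past the threshold without replicate 1 (0.81, adjusted p = 0.0414), resistant 3 h replicate 1 (0.83, adjusted p = 0.0375), sun1-1 3 h replicate 1 (0.74, adjusted p = 0.0303) or sun1-1 3 h replicate 2 (0.82, adjusted p = 0.0460). Rows called at 3 h were 5 in the fit as reported, 54 with scaling and 174 with weights, and ran from 0 to 235 over all settings. Quality weights also put susceptible leaves at 3 h past the threshold (0.91, adjusted p = 0.0355) and turned the sign in sun1-1 leaves at 27 h (0.12), in the 27 h mean (0.098), in resistant minus susceptible leaves at 3 h (0.035) and in sun1-1 minus resistant leaves at 27 h (0.16), and gave -0.61 for 27 h minus 3 h and -0.28 for 27 h minus 9 h. Resistant minus susceptible leaves at 9 h turned to -0.037 with scaling, -0.099 with the replicate block and -0.18 with clone 1 alone. With clone 2 alone sun1-1 leaves at 9 h gave -0.019 and resistant minus susceptible leaves at 3 h 0.0076. Leaving out replicates turned sun1-1 9 h (-0.21 to 0.38), resistant minus susceptible 9 h (-0.11 to 0.25), resistant minus susceptible 3 h (-0.49 to 0.26) and sun1-1 minus resistant 3 h (-0.55 to 0.15); none of these passed under any setting. The exact tests without both wide arrays gave 0.00091 at 27 h and -0.68 for 27 h minus 3 h (adjusted p = 0.0576); without replicate 4 the 9 h mean was 0.37 (adjusted p = 0.0762), and without sun1-1 arrays 27 h minus 9 h was -0.59 (adjusted p = 0.0184). The cause of these changes was not tested. Replicate numbers showed no pairing of the arrays, though a weak pairing could be missed. With each group's mean taken off every row, 111 same-numbered pairs correlated from -0.53 to 0.58, 30 of them over 0.1. Their mean r was -0.020, against 0.0067 for other pairs of different groups, and 5 of 30 arrays correlated best with their own number. With the replicate block the 3 h mean was 0.83 (adjusted p = 0.109), 27 h minus 3 h was -0.97 (adjusted p = 0.354), and no call changed. With the displaced column as deposited, sun1-1 leaves at 27 h would average -0.49 from values of neighbouring rows. With every sign turned the 3 h mean is -0.73, the 27 h mean 0.26 and 27 h minus 3 h 0.98. The setting of rows with a value on all 30 arrays was not run, since STWRKY8 lacks 1, and sun1-1 27 h has no value where fewer than 2 arrays remain.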
